A study of Mus musculus with 24 samples.

Results

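The 8 libraries described here were made from WT mice and hold memory B cells, which the labels abbreviate csMBC. Of these, 4 came from cells sorted as lung CCR6-CD69- and 4 from cells labelled circulating. They were chosen by their sample titles from 24 libraries in 6 groups of 4. The mice had been given house dust mite extract intranasally and met the same allergen again after 6 weeks. WT mice had the genotype SCAP +/+ hCD20-TamCre, so they too carried the transgene, a tamoxifen-inducible Cre driven by human CD20 sequences and active in B cells. A second set of 8 libraries, from the same 2 populations of SCAP fl/fl hCD20-TamCre mice (SCAP cKO in the labels, with SCAP deleted before the second exposure), served for the same contrast in other libraries. The labels give no age, and they do not say whether WT mice received tamoxifen. The tissue label reads lung for every library, the circulating ones included, and where the circulating cells were taken from is not given in the sources used here. The design text calls both sorted lung populations resident. Nothing says that replicates were separate animals, and the p-values therefore measure only the spread between these samples.

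Memory B cells persist after an infection or allergen exposure and respond quickly when the antigen returns. Some stay in the lung, where the surface protein CD69 holds lymphocytes in tissue and the chemokine receptor CCR6 guides them towards epithelium, while others recirculate between blood and lymphoid organs. Cells without either marker, sorted from lung, were set here against circulating cells. The question, as far as the design gives it, is how these populations differ during a recall response.

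Most of the genes that passed the test were ones known from natural killer cells: a granule protein gene, genes of activating and inhibitory receptors, a chemokine gene and a transcription factor gene. The promoters of 3 of them and of Egr2, the early response gene that passed in the other direction, are shown as examples of the called genes of each direction. Each runs from 250 bases before to 50 bases after the first listed transcription start, 5′ to 3′ on the gene's strand, as RefSeq gives it on GRCm38.p6. Capitals mark the letters TCACAC (the T-box half-site bound by Eomes and its relatives) or TGNGGT (the RUNX core) on either strand. Nkg7, a cytotoxic granule protein, starts within chr7:43436888-43437187 on the plus strand. Klra1 lies at chr6:130386825-130387124 and Klra4 at chr6:130067222-130067521, both on the minus strand, and both encode Ly49 receptors for class I MHC. Egr2, a zinc finger factor induced by antigen receptor signals, lies at chr10:67535249-67535548 on the plus strand.
Nkg7: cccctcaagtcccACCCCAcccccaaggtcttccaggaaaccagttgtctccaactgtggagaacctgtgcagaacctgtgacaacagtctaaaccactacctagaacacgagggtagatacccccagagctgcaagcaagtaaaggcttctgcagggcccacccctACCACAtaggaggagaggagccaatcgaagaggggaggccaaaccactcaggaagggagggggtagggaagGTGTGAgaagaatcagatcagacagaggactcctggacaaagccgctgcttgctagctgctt
Klra1: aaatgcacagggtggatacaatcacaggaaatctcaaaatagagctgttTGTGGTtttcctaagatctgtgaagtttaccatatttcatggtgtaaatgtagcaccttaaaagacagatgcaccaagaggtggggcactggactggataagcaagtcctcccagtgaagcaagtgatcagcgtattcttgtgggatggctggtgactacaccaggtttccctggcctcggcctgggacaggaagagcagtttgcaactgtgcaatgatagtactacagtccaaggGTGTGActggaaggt
Klra4: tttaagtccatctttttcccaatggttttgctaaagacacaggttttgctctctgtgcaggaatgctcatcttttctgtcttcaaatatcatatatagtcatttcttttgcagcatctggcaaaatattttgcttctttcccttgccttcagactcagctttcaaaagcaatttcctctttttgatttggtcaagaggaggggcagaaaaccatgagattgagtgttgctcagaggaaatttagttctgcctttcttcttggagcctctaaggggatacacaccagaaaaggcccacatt
Egr2: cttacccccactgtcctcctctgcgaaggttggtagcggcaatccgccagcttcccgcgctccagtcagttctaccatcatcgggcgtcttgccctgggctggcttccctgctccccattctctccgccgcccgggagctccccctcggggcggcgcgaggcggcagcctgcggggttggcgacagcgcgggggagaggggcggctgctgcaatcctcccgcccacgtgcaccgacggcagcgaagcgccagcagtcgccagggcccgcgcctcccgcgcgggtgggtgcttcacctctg

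The Nkg7 promoter held 1 T-box half-site, starting at position -12 from the start, and 2 RUNX cores. The Klra1 promoter held 1 of each, the half-site at position 36, and the Klra4 and Egr2 promoters held neither. The CArG box, the serum response factor motif, was found in none of the 4. Among 32544 RefSeq promoters of the same length, 14.3% held the half-site, 45.9% the RUNX core and 1.64% the CArG box. The Klra1 and Klra4 promoters were identical at 48.3% of aligned positions, within the 44.9 to 49.0% of the other 5 pairs. These matches describe letters only.

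Total counts ran from 680077 to 3378171 in the lung CCR6-CD69- and from 356782 to 2466421 in the circulating libraries (n = 4 each), over the rows analysed. The limit set by 3 counts was 1.02 to 3.91 and 1.05 to 6.68 CPM (counts per 1e6, with scaled library sizes), and such limits cover counting error only. The smallest library of each group was replicate 2. Replicates of a group correlated across genes at 0.691 to 0.878 and 0.554 to 0.715 (Pearson's r of log2 CPM; genes are not independent replicates). The labels give 2 batches with 2 libraries of each group in each, and ribosomal protein rows took 2.80 to 11.9% of counts in lung CCR6-CD69- and 2.84 to 10.6% in circulating libraries, the low values in batch 2. Lung CCR6-CD69- replicate 2 stood apart: Chil3, which macrophages of the lung secrete, took 2.86% of its counts, against 0.0446 to 0.350% in the other 3 libraries of its group.

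All 8 libraries held B cell transcripts. The 14 B cell identity genes with a row took 0.713 to 1.00% of counts in lung CCR6-CD69- and 0.567 to 0.836% in circulating libraries, and none was at 0 in either group. Ms4a1, which encodes CD20, was counted at 1213, 697, 1108 and 963 CPM in lung CCR6-CD69- replicates 1 to 4 and at 652, 307, 772 and 392 CPM in circulating replicates 1 to 4. The ranges overlapped, and the log2 fold change (lung CCR6-CD69- minus circulating, as throughout) was 0.90 ± 0.41 (SE) with an adjusted p of 0.508 in edgeR. Spib, a transcription factor of B cells and plasmacytoid dendritic cells, had a value of -0.98 ± 0.47, adjusted p 0.542. Scap itself was counted at 141 ± 39.1 and 99.4 ± 71.8 CPM (SD, n = 4), and Cd69 at 787 ± 127 and 622 ± 431 CPM, with circulating replicate 2 at 0 and 31.2 CPM. In the libraries labelled cKO, Scap was at 164, 160.4, 71.2 and 0 CPM in lung CCR6-CD69- and at 203, 294, 375 and 113 CPM in circulating replicates 1 to 4. Of the circulating libraries labelled cKO, 3 lay above the highest WT circulating one, at 172 CPM, and the difference was not tested. Counts per gene do not show whether the deleted stretch was transcribed, so they do not check that label. Ccr6 and Cd79a were not analysed here.

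Between the populations, 12 of 6779 genes tested passed an adjusted p of 0.05 in edgeR, 0.177% of the genes tested. Of these, 2 were higher in lung CCR6-CD69- libraries (0.0295%) and 10 were lower (0.148%). At an unadjusted p under 0.05 there were 585 genes, 8.63% of those tested, with 465 higher (6.86%) and 120 lower (1.77%). DESeq2 called 130, split the other way with 81 higher and 49 lower, and limma voom called 38 (6 higher and 32 lower). The calls rest on few libraries: edgeR called 2, 1, 3 and 2 genes without lung CCR6-CD69- replicates 1 to 4 in turn, and 12, 10, 7 and 2 without circulating replicates 1 to 4. Nkg7 was called in all 8 of these fits and none of the other 11 was.

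**Figure D1:**
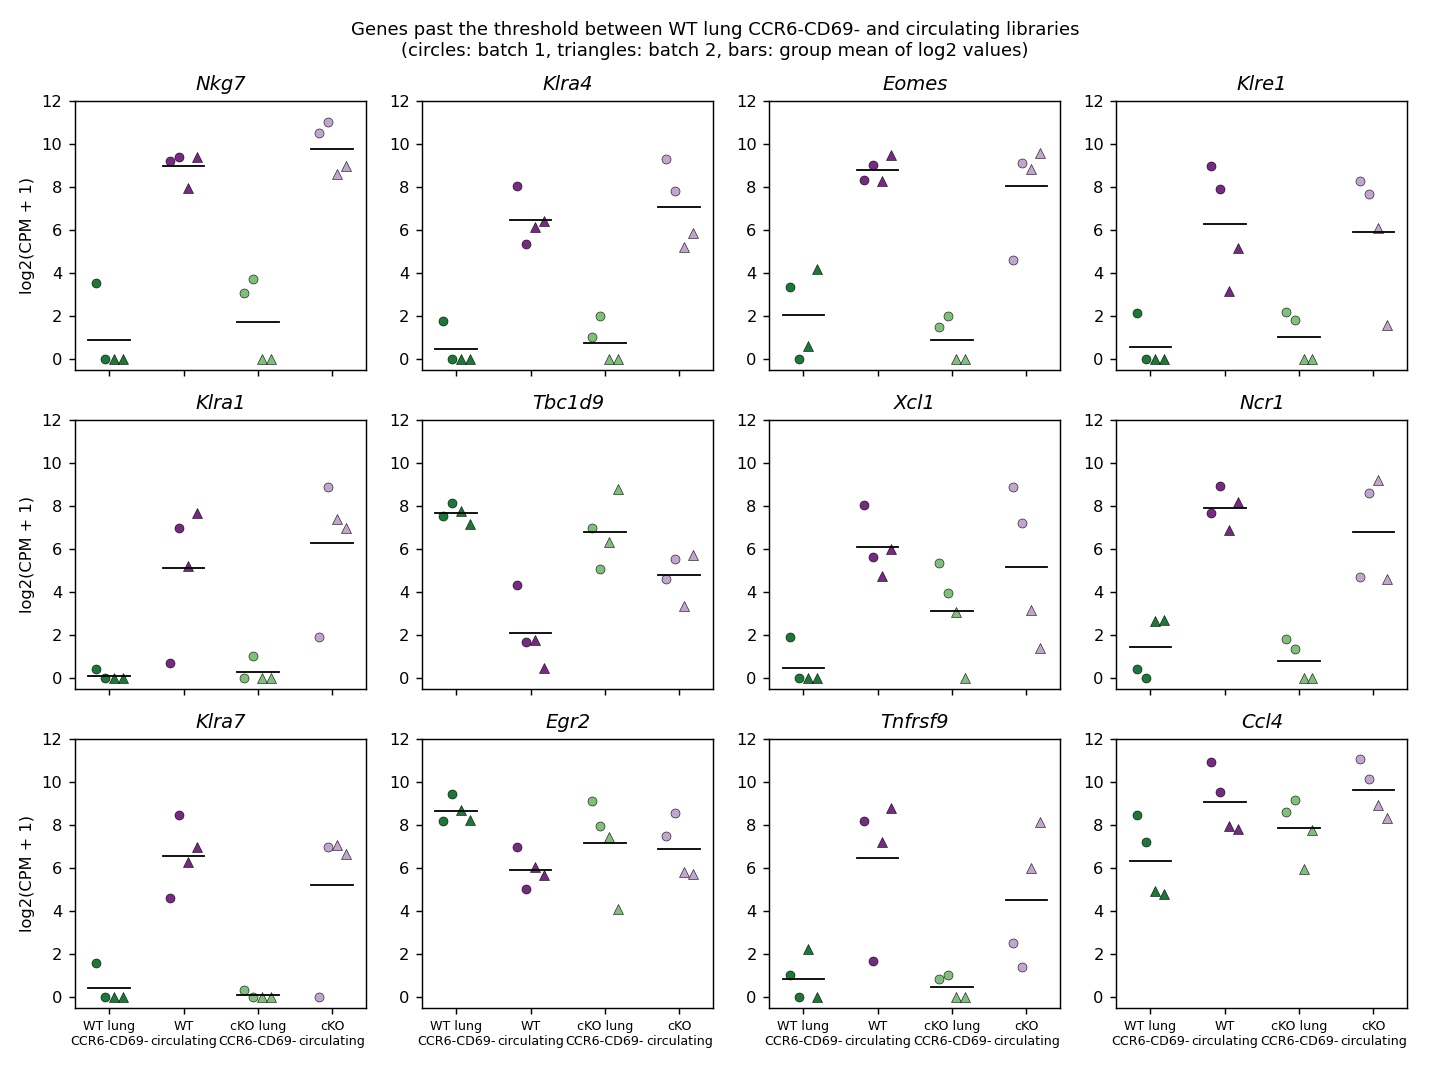
CPM on a log2(CPM + 1) scale for the 12 genes past the threshold, by library, in WT lung CCR6-CD69-, WT circulating and the matching groups labelled cKO. Points are libraries (circles batch 1, triangles batch 2) and bars are group means of the log2 values. Nkg7 stays at or under 10.5 CPM in WT lung CCR6-CD69- and between 241 and 672 CPM in WT circulating libraries.

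The granule gene Nkg7 showed the smallest p. It was counted at 10.5, 0, 0 and 0 CPM in lung CCR6-CD69- replicates 1 to 4 and at 585, 672, 241 and 671 CPM in circulating replicates 1 to 4. The groups did not overlap, which held for 6.00% of genes tested (4.25% higher and 1.76% lower). The log2 fold change was -8.57 ± 1.13 (SE), adjusted p 5.83e-06. In pooled counts, 31 against 3798, circulating libraries had 132 times as much per scaled total (95% counting interval 93.2 to 195). In these bulk samples, fewer cells that express the gene and less RNA per cell cannot be told apart.

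Among receptors, 5 genes fell. Klra4 was counted at 2.37, 0, 0 and 0 CPM in lung CCR6-CD69- and at 258, 40.1, 69.0 and 83.9 CPM in circulating libraries (-8.51 ± 1.63, adjusted p 0.00764). Klra1 had a single count in the lung libraries, in replicate 1, and 711 in the circulating ones, spread as 0.603, 125, 36.2 and 202 CPM. Its fitted value of -9.50 ± 2.02 (adjusted p 0.0202) depends on the prior count, and the pooled ratio of 769 had a 95% counting interval of 138 to 30402. Circulating replicate 1 held a single count too, so at this depth it cannot be told from the lung libraries. Klra7, a further Ly49 receptor, was at 2.03, 0, 0 and 0 CPM against 23.5, 349, 76.3 and 125 CPM (-8.14 ± 1.91, adjusted p 0.0490). With the replicate number as a block its adjusted p was 0.0952. Klre1, a lectin-like receptor that forms heterodimers on natural killer cells, was at 3.39, 0, 0 and 0 CPM against 497, 236, 8.01 and 34.1 CPM (-7.74 ± 1.61, adjusted p 0.0165), with the 2 batch 1 circulating libraries well above those of batch 2. Ncr1, which encodes the activating receptor NKp46, was at 0.339, 0, 5.35 and 5.46 CPM against 203, 481, 116 and 288 CPM (-6.54 ± 1.47, adjusted p 0.0306). In 4 of the 5 the highest lung value lay under the lowest circulating one, while for Klra1 those values were 1 count each. Of 50-base windows in the spliced transcripts (GENCODE M21), 12.3% of those of Klra7, 4.68% of Klra4 and 2.98% of Klra1 also occur in another gene's transcripts, Klra13-ps for Klra7, Klra1 for most of those of Klra4, and Klra4 for Klra1. How reads from such shared stretches were assigned is not given in the sources used here, so the split between Klra genes is uncertain to that extent.

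Eomes, a transcription factor needed for natural killer cell maturation, fell from a mean of 464 ± 192 to 6.70 ± 8.11 CPM (SD, n = 4). It was at 9.15, 0, 0.535 and 17.1 CPM in lung CCR6-CD69- libraries and at 320, 510, 309 and 716 CPM in circulating libraries (-5.99 ± 1.20, adjusted p 0.0138). Lung replicate 2 alone had no Eomes count, replicate 4 had the most, and the groups did not overlap. Xcl1, a chemokine made by natural killer and activated CD8 T cells that attracts dendritic cells, was at 2.71, 0, 0 and 0 CPM against 259, 49.0, 25.4 and 61.9 CPM (-8.22 ± 1.79, adjusted p 0.0222). For Xcl1, 10.8% of windows are shared with Gm20743.

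The last 2 genes that fell are not particular to natural killer cells, and their groups overlapped. Tnfrsf9 encodes 4-1BB, a costimulatory receptor of activated lymphocytes. It was at 1.02, 0, 3.75 and 0 CPM in lung CCR6-CD69- libraries and at 287, 2.23, 147 and 442 CPM in circulating ones, where replicate 2 lay below lung replicate 3 (-7.45 ± 1.76, adjusted p 0.0490, and 0.0779 with the replicate block). Ccl4, a chemokine that attracts leukocytes, was at 349, 145, 29.4 and 26.2 CPM against 1947, 743, 246 and 223 CPM (-2.70 ± 0.64). Within each batch both circulating libraries lay above both lung libraries, although across batches they did not. Its adjusted p lay just under the threshold of 0.05, and was 0.0601 with relative log expression (RLE) scaling.

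Both genes that rose had counts in every one of the 8 libraries. Egr2 was counted at 288, 690, 408 and 300.0 CPM in lung CCR6-CD69- replicates 1 to 4 and at 127, 31.2, 64.1 and 49.8 CPM in circulating replicates 1 to 4, with no overlap (2.62 ± 0.62, adjusted p 0.0490). In WT lung CCR6+CD69+ libraries, the remaining WT population, it was at 838 ± 180 CPM. Tbc1d9, a putative Rab GTPase-activating protein, was at 184, 278, 218 and 143 CPM against 19.3, 2.23, 2.44 and 0.366 CPM (5.07 ± 1.09, adjusted p 0.0202), and at 159 ± 43.5 CPM in lung CCR6+CD69+ libraries. The circulating counts of Tbc1d9 came mostly from replicate 1, with 32 of 41. Of its transcript windows 13.1% are shared with Gm10645.

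Each of the 12 genes kept its sign in every alternative setting that gave it a value, from 21 to 23 settings per gene. Their calls were less steady. With 1 library left out, Klra4 was called in 5 of 8 fits, Eomes in 4, Klra1 and Xcl1 in 3, Klre1 and Ncr1 in 2, Tbc1d9, Klra7, Tnfrsf9 and Ccl4 in 1, and Egr2 in none. The highest adjusted p over these fits was 0.104 for Klra4, 0.107 for Eomes, 0.162 for Tbc1d9, 0.216 for Egr2 and 0.370 for Ccl4. Without a batch term no gene passed, with 449 at an unadjusted p under 0.05. In batch 1 alone 3 genes passed, 2 of the 12 among them, and in batch 2 alone none passed, with 255 at an unadjusted p under 0.05. Log2 fold changes in batches 1 and 2 were -6.41 and -5.83 for Eomes, -2.42 and -3.07 for Ccl4, 2.69 and 2.63 for Egr2, and 4.40 and 6.95 for Tbc1d9. They were -6.73 and -13.1 for Nkg7, -6.57 and -10.5 for Klra4, -7.45 and -8.65 for Klre1, and -7.90 and -11.1 for Klra1. For Xcl1 they were -6.47 and -9.70, for Klra7 -7.32 and -10.9, and for Ncr1 -10.3 and -5.21. Tnfrsf9 had -7.31 in batch 2 and no value in batch 1. In batch 2 lung CCR6-CD69- libraries, Nkg7, Klra4, Klre1, Klra1, Xcl1 and Klra7 had no count, so those values depend on the prior count.

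**Figure D2:**
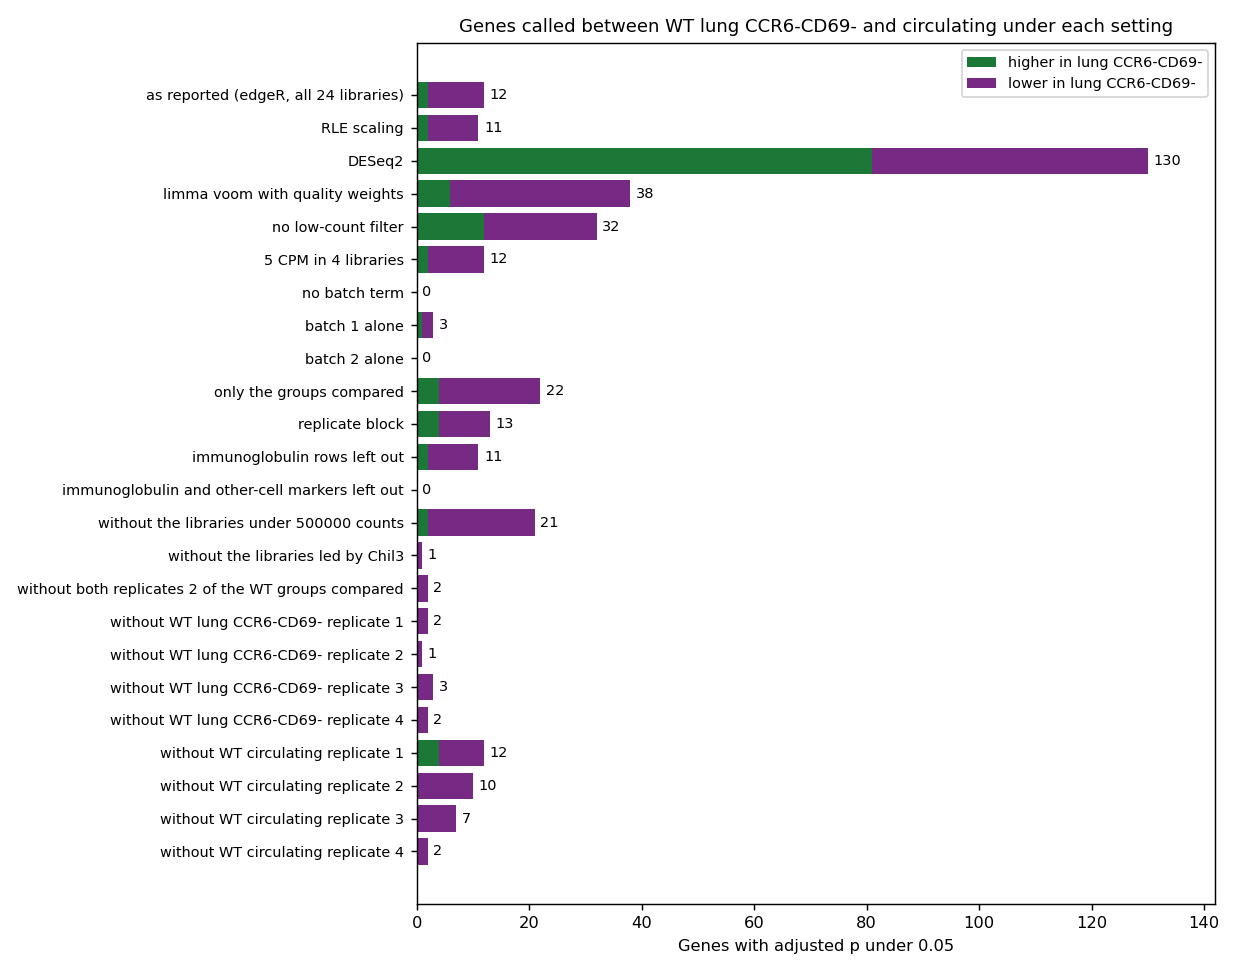
Number of genes with adjusted p under 0.05 between WT lung CCR6-CD69- and WT circulating libraries under each setting, with higher genes in green and lower genes in purple. The count is 12 as reported and ranges from 0 (no batch term, batch 2 alone, marker genes left out) to 130 (DESeq2).

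Another 18 genes came next by p among those that averaged 5 CPM or more in their higher group, and none of them passed in the reported fit. Each was called in some alternative settings, from 1 for Chst1 to 6 of 22 for Klra8. Of the 11 with lower values, 6 had all their lung counts in replicate 1. Among these were the Ly49 gene Klra8 at 3 against 458 counts (pooled ratio 165, 95% counting interval 56.1 to 803), the serine protease inhibitor Serpinb9b at 1 against 432 (467, 83.4 to 18489), the kinase-like Styk1 at 2 against 182 (98.4, 26.8 to 818), and the mast cell protease gene Cma1 at 6 against 367. Their adjusted p ran from 0.0525 for Klra8 to 0.136 for Styk1 and Cma1. Il18rap, a subunit of the interleukin 18 receptor, was at 2.03, 20.9, 3.21 and 25.5 CPM against 168, 499, 232 and 645 CPM (-4.91 ± 1.35, adjusted p 0.151). The T cell kinase Prkcq was at 14 against 467 counts, with circulating replicate 1 at 0, and Baiap3, a regulator of vesicle release, at 10 against 591. Also among the 6, Kcnip3, a calcium-binding protein, had 1 count in lung CCR6-CD69- libraries and 450 in circulating ones, with replicate 2 at 0. Col5a3, a collagen chain, had 1 and 727 counts, again with circulating replicate 2 at 0.

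Among myeloid and homing genes of that group, Irf8 was at 1587, 1096, 807 and 853 CPM in lung CCR6-CD69- and at 4262, 2339, 2737 and 2360 CPM in circulating libraries. Irf8 is a transcription factor of B cells and dendritic cells, and its groups did not overlap (-1.45 ± 0.37, adjusted p 0.0883). Ccr2, the receptor that brings monocytes and other leukocytes out of the marrow and into tissue, was at 42.4, 47.0, 47.1 and 22.6 CPM against 647, 347, 354 and 685 CPM (-3.68 ± 1.00, adjusted p 0.136). Every circulating library thus held several times the Ccr2 level of every lung library.

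The other 7 genes of the 18 had higher values in lung CCR6-CD69- libraries. Trim5, of the tripartite motif family, was at 149, 127, 74.4 and 60.1 CPM against 14.5, 0, 0.348 and 0 CPM (4.92 ± 1.18, adjusted p 0.0525). Rasgrp3, which links the B cell receptor to Ras, was at 732, 356, 618 and 513 CPM against 134, 0, 142 and 62.3 CPM (2.68 ± 0.71, adjusted p 0.136). Bcl2a1b, a survival gene under NF-kB control, was at 113, 227, 68.0 and 44.0 CPM against 14.5, 0, 0 and 6.60 CPM (4.23 ± 1.13, adjusted p 0.136). The groups did not overlap in any of these 3, and circulating replicate 2, the smallest library, was at 0 in each. Ighg3, the IgG3 constant region, was at 494, 133, 321 and 794 CPM against 25.3, 0, 54.7 and 101 CPM (3.31 ± 0.89, adjusted p 0.136). Nrp2, a semaphorin and VEGF coreceptor, was at 12.2, 300.1, 60.5 and 63.7 CPM against 12.1, 0, 1.39 and 0 CPM (5.16 ± 1.32, adjusted p 0.0951), so lung replicate 1 barely exceeded circulating replicate 1. The arginine methyltransferase gene Prmt2 had 647 against 13 counts, and the sulfotransferase gene Chst1 257 against 1 (circulating over lung ratio 0.00421, 95% counting interval 0.000106 to 0.0236), with 1.30 CPM in lung replicate 2.

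Marker lists of other cell types were read as shares of all counts in each library, which needs no filter on low counts. The 21 natural killer genes with a row took 0.00607, 0.00162, 0.00945 and 0.00846% of counts in lung CCR6-CD69- replicates 1 to 4 and 0.210, 0.371, 0.192 and 0.390% in circulating replicates 1 to 4. The lung CCR6+CD69+ libraries lay with the lung CCR6-CD69- ones, at 0.00765 to 0.0113%. In lung CCR6-CD69- libraries Khdc1a was at 0 and the other 20 had counts. In the fit, 19 of the 21 were tested, all with lower values, and 8 were called, with a median log2 fold change of -7.08 beside 0.12 for all genes tested. Members reached the count filter through libraries in which they were high, so this count and median describe the list and support nothing further. The weakest difference was that of Tbx21, the T-box factor T-bet, at -1.24. The number of members called ran from 0 to 15 over the settings, and the list's median kept its sign in 22 of 22. The part of natural killer transcripts in the other differences was not tested.

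**Figure D3:**
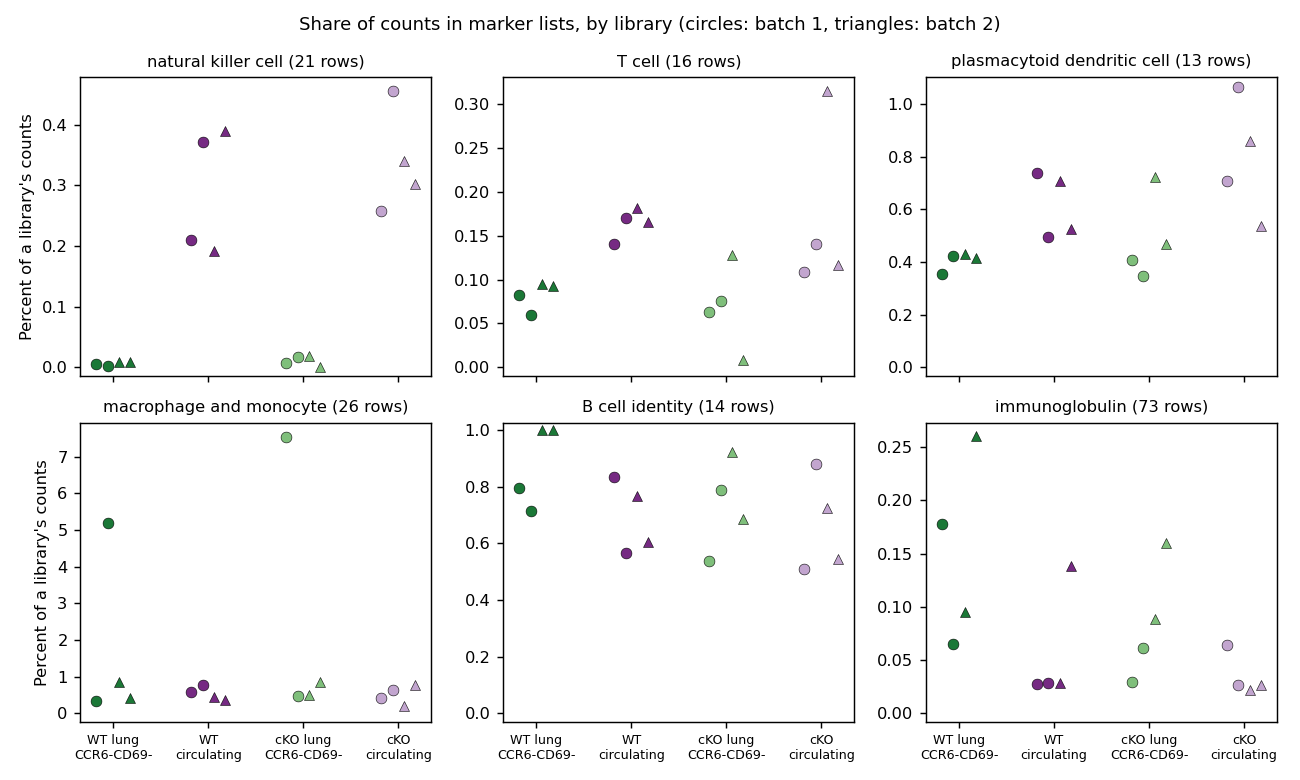
Percent of each library's counts in 5 marker lists and in immunoglobulin rows, by group (circles batch 1, triangles batch 2; each panel has its own linear axis). Natural killer genes take 0.192 to 0.390% in WT circulating and at most 0.00945% in WT lung CCR6-CD69- libraries, and WT lung CCR6-CD69- replicate 2 stands apart in macrophage and monocyte genes.

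T cell genes differed in share in the same direction. The 16 with a row took 0.0594 to 0.0955% of counts in lung CCR6-CD69- and 0.141 to 0.182% in circulating libraries. Of 15 tested, 12 had lower and 3 higher values (median -1.37). None was called and 0 had an unadjusted edgeR p under 0.05, against 8.63% of all genes tested. The members named by p were Zap70, Cd247 and Lat, signalling proteins of the T cell receptor that natural killer cells use too. Their log2 fold changes were -3.21, -3.08 and -3.06. Lat was at 356 CPM in circulating replicate 1 and at most 33.4 CPM in the other circulating libraries. Its values in batches 1 and 2 were -6.70 and -0.91. Plasmacytoid dendritic cell genes took 0.355 to 0.431% against 0.493 to 0.737%, also without overlap. Spib is in both this list and that of B cell identity. It was at 2728 CPM in circulating replicate 1, which had the highest share, and at most 843 CPM in the other circulating libraries. In the plasmacytoid list 11 of 12 tested had lower values, none called (median -1.04), among them Lifr, a cytokine receptor subunit, at -1.95 ± 0.95 (adjusted p 0.545).

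Macrophage and monocyte genes took 0.345, 5.19, 0.853 and 0.431% of counts in lung CCR6-CD69- replicates 1 to 4 and 0.373 to 0.779% in circulating libraries. Replicate 2 was the library led by Chil3. Of 23 tested, 21 had higher values in lung CCR6-CD69- and none was called (median 1.05). Without that replicate 10 were higher and 13 lower, with a median of -0.05, and the lung macrophage genes Marco and Lyz1 were at 0 in all 8 libraries. Fabp4, a lipid-binding protein of alveolar macrophages, was at 0.678, 161, 12.8 and 0.364 CPM in lung CCR6-CD69- replicates 1 to 4, highest in replicate 2. The fit without the libraries led by Chil3, which also leaves out cKO lung CCR6-CD69- replicate 1, called 1 gene, Nkg7, in place of 12. Fits without WT lung CCR6-CD69- replicate 1, 3 or 4 alone called similarly few, 2, 3 and 2. Genes of granulocytes, red cells and platelets, lung epithelium, and endothelium and stroma took at most 0.0521% of counts in any of the 8 libraries, and those of conventional dendritic cells at most 0.0653%.

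No list beside natural killer genes (8 called) and early response genes (Egr2 alone) had a called member. The programmes of the B cell itself are therefore given as counts, medians and values, read against a median of 0.12 for all genes and 8.63% at an unadjusted p under 0.05. Of 12 early response genes tested, 7 had higher and 5 lower values. The orphan nuclear receptor Nr4a2, induced like Egr2 by antigen receptor signals, was at 98.9, 167, 369 and 260 CPM in lung CCR6-CD69- and at 605, 694, 714 and 1196 CPM in circulating libraries (-1.86 ± 0.64, adjusted p 0.336). Its direction was thus opposite to that of Egr2, without overlap between groups. Nr4a3 was at 620 ± 117 and 1134 ± 421 CPM (-0.92 ± 0.45, adjusted p 0.545).

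**Figure D4:**
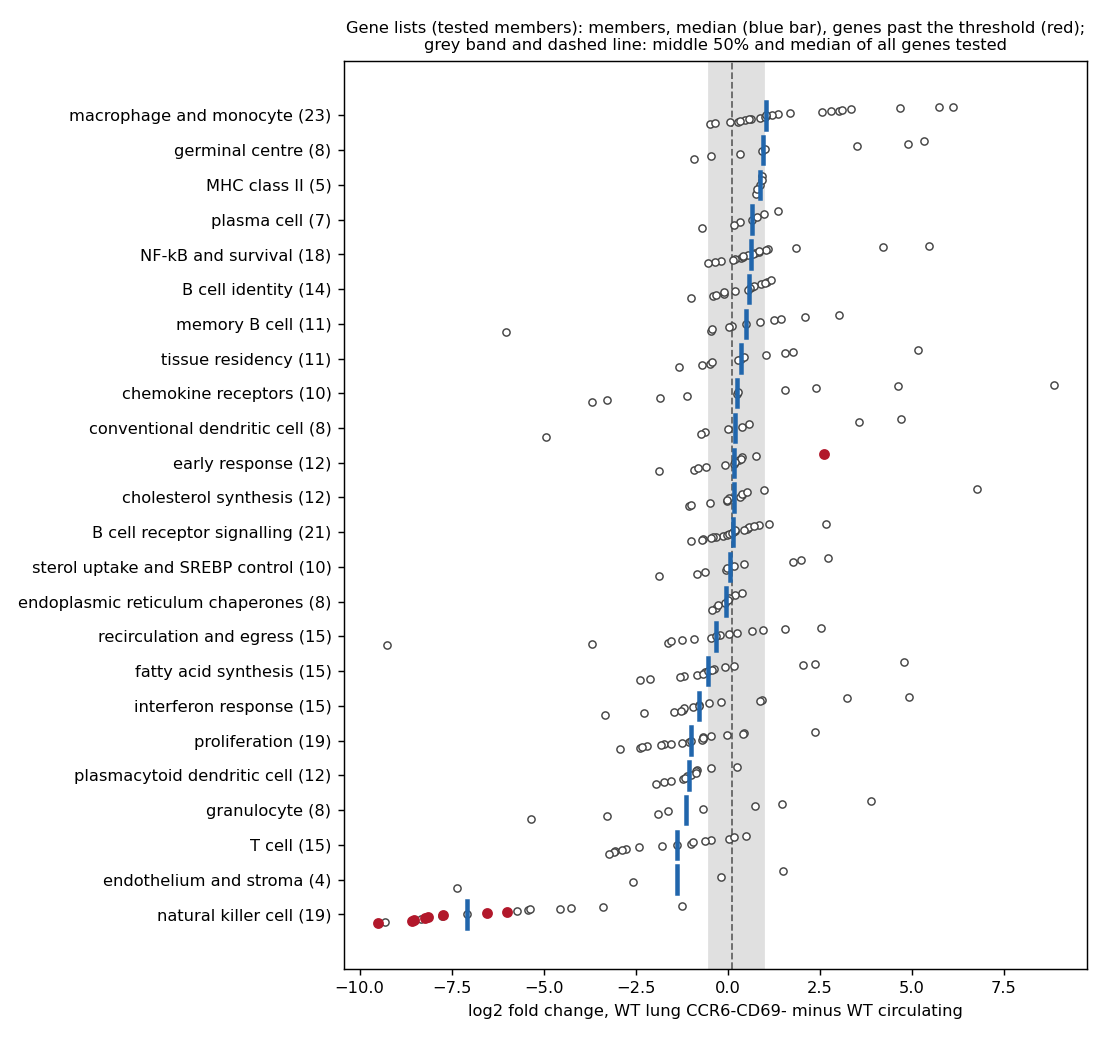
Log2 fold changes (lung CCR6-CD69- minus circulating, WT) of the tested members of each list with at least 4 tested, 1 row per list; red points passed the threshold, blue bars are list medians and the grey band is the middle 50% of all genes. The natural killer list has a median of -7.08 and the other medians lie between -1.38 and 1.05.

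Antigen presentation genes had higher values in lung CCR6-CD69- libraries. All 5 tested MHC class II genes did so, with a median of 0.89, and 4 of them had an unadjusted p under 0.05. Cd74, the invariant chain, was at 26456, 12611, 13735 and 15901 CPM against 17996, 7745, 8520 and 6473 CPM (0.80 ± 0.27, adjusted p 0.336). H2-Aa, an alpha chain of MHC class II, was at 4516 ± 2595 and 2493 ± 1818 CPM (0.95 ± 0.31, adjusted p 0.336), and the beta chain gene H2-Eb1 had 0.89 ± 0.32. The groups overlapped for each of these 3, since circulating replicate 1 lay above 3 of the 4 lung libraries. The median stayed above 0 in 23 of 23 settings, from 0.48 to 1.19, with 0 to 3 members called.

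No member of the recirculation and tissue residency lists was called. Itgal, the alpha chain of LFA-1 and a member of the tissue residency list, was at 454, 321, 543 and 583 CPM in lung CCR6-CD69- and at 1166, 683, 1505 and 1423 CPM in circulating libraries (-1.33 ± 0.44, adjusted p 0.336). Its groups did not overlap. It was called as lower in 3 of 23 alternative settings. One was the fit without the libraries under 500000 counts, which leaves out circulating replicate 2 and 1 cKO library, at an adjusted p of 0.00630. Lef1, a transcription factor of naive lymphocytes, had no count in lung CCR6-CD69- libraries and 125 in circulating ones, at least 45.0-fold higher by the 3 counts over the group, though circulating replicates 1 and 3 were at 0 and 0.348 CPM. In the recirculation list 6 of 15 tested had higher and 9 lower values (median -0.30), and in the tissue residency list 7 of 11 had higher and 4 lower values (median 0.35). From the latter, Abca1, a cholesterol exporter, was at 386, 475, 571 and 585 CPM against 131, 125, 229 and 95.6 CPM (1.79 ± 0.56, adjusted p 0.299).

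Of 10 chemokine receptor genes tested, 6 had higher and 4 lower values. Ackr3, a scavenging receptor for Cxcl12, was at 0.678, 23.5, 39.6 and 20.4 CPM in lung CCR6-CD69- libraries and at 0 in all 4 circulating ones. That is at least 46.3-fold higher in lung by the 3 counts over the group, with an adjusted p of 0.236.

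Among genes of survival and of memory, Traf1, an adaptor of TNF receptors, was at 217, 342, 133 and 190 CPM against 95.8, 64.5, 47.4 and 38.5 CPM (1.86 ± 0.70, adjusted p 0.379). It belongs to the NF-kB and survival list, in which 15 of 18 tested had higher values (median 0.62). In the libraries labelled cKO that list had 5 higher and 13 lower values (median -0.33, beside -0.26 for all genes). There 6 of the 18 kept their WT sign. The memory B cell list had 8 of 11 with higher values (median 0.50). Pdcd1lg2, which encodes PD-L2 and marks a subset of mouse memory B cells, was at 115, 70.5, 120 and 93.6 CPM against 27.1, 15.6, 49.8 and 0 CPM (2.10 ± 1.09, adjusted p 0.626). Cd27, a memory marker in humans that T and natural killer cells also carry, was at 0, 0, 0 and 5.46 CPM against 15.1, 22.3, 31.0 and 57.5 CPM (-6.02 ± 2.13, adjusted p 0.338). Both kept the groups apart, in opposite directions.

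Antibody genes varied between libraries. Immunoglobulin rows took 0.178, 0.0651, 0.0951 and 0.261% of counts in lung CCR6-CD69- replicates 1 to 4 and 0.0276, 0.0286, 0.0282 and 0.138% in circulating replicates 1 to 4, so circulating replicate 4 lay among the lung values. Jchain, which links antibody units into polymers, was at 3699, 288, 1675 and 4064 CPM against 1618, 654, 1704 and 2199 CPM (0.66 ± 0.56, adjusted p 0.995). Of 7 plasma cell genes tested, 6 had higher values (median 0.66) and none an unadjusted p under 0.05. Of 8 germinal centre genes tested, 6 had higher values (median 0.97).

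Proliferation genes had lower values in lung CCR6-CD69- libraries for 16 of 19 tested, none with an unadjusted p under 0.05, and the median of -0.98 stayed below 0 in 23 of 23 settings (-1.48 to -0.51). The interferon response list had 11 of 15 with lower values (median -0.78). In the libraries labelled cKO the interferon list had 8 higher and 7 lower values (median 0.12), while the proliferation median was -1.59. SCAP carries the SREBP factors that switch on lipid synthesis genes, and lists of that pathway were mixed. Cholesterol synthesis had 7 higher and 5 lower (median 0.18), sterol uptake and control 5 and 5 (0.08), fatty acid synthesis 4 and 11 (-0.52), and endoplasmic reticulum chaperones 4 and 4 (-0.04). These 4 medians changed sign in 3, 3, 1 and 2 of 23 settings, and those of the early response, recirculation and chemokine receptor lists in 2, 1 and 1. Single members with the smallest p were Mvk, mevalonate kinase, at 110 against 5 counts, Stard4, a sterol transporter, at 302, 79.6, 86.2 and 66.6 CPM against 16.3, 4.45, 24.0 and 26.0 CPM (2.74 ± 1.21, adjusted p 0.489), and Hsd17b12, of fatty acid elongation, at 129 ± 98.1 against 22.7 ± 15.2 CPM (2.37 ± 1.04, adjusted p 0.489). The groups did not overlap for Stard4 and Hsd17b12, while Mvk had 9 counts in lung replicate 1 and 5 in circulating replicate 1, or 3.05 and 3.01 CPM.

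The same contrast in the libraries labelled cKO shares no library with the WT one, although the fit and its estimate of spread are shared. It called 21 genes, 2 higher and 19 lower (0.310% of genes tested, 0.0295% higher and 0.280% lower). At an unadjusted p under 0.05 it had 960 genes (14.2%), 365 higher (5.38%) and 595 lower (8.78%), and the groups did not overlap for 2.12% of genes tested (0.443% higher and 1.68% lower). RLE scaling turned the split to 29 higher and 22 lower of 51, and DESeq2 to 294 and 226 of 520. RLE moved the median of all genes in this contrast from -0.26 to -0.07, and voom moved the WT one from 0.12 to 0.47. All 12 genes called in WT had the same sign in the libraries labelled cKO. That held for 56.1% of all genes tested, and for 65.0% of the 585 with an unadjusted edgeR p under 0.05 in WT. Of the 12, 7 were called in the cKO contrast: Nkg7, Klra4, Eomes, Klre1, Klra1, Ncr1 and Klra7. The cKO values were -8.11 ± 1.14 for Nkg7 (adjusted p 2.84e-05), at 7.36, 12.1, 0 and 0 CPM in lung CCR6-CD69- and at 1430, 2098, 390 and 502 CPM in circulating libraries. Eomes had -8.51 ± 1.42 (adjusted p 0.000605). Natural killer genes took 0 to 0.0193% of counts in the lung CCR6-CD69- and 0.258 to 0.456% in the circulating libraries labelled cKO. Itgal and Nr4a2, without a call in WT, were called in the cKO contrast at -2.18 and -3.02 (edgeR adjusted p 0.0149 and 0.0303). The 2 genes called as higher there, Ptpre and Snx14, were chosen after their values were seen and had 3.96 and 5.41, against -0.66 and 0.49 in WT. In cKO lung CCR6-CD69- libraries they averaged 960 ± 1579 and 799 ± 1541 CPM (SD), each SD above its mean. In cKO circulating libraries they averaged 51.2 ± 39.3 and 13.9 ± 12.3 CPM, and the groups overlapped for both.

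**Figure D5:**
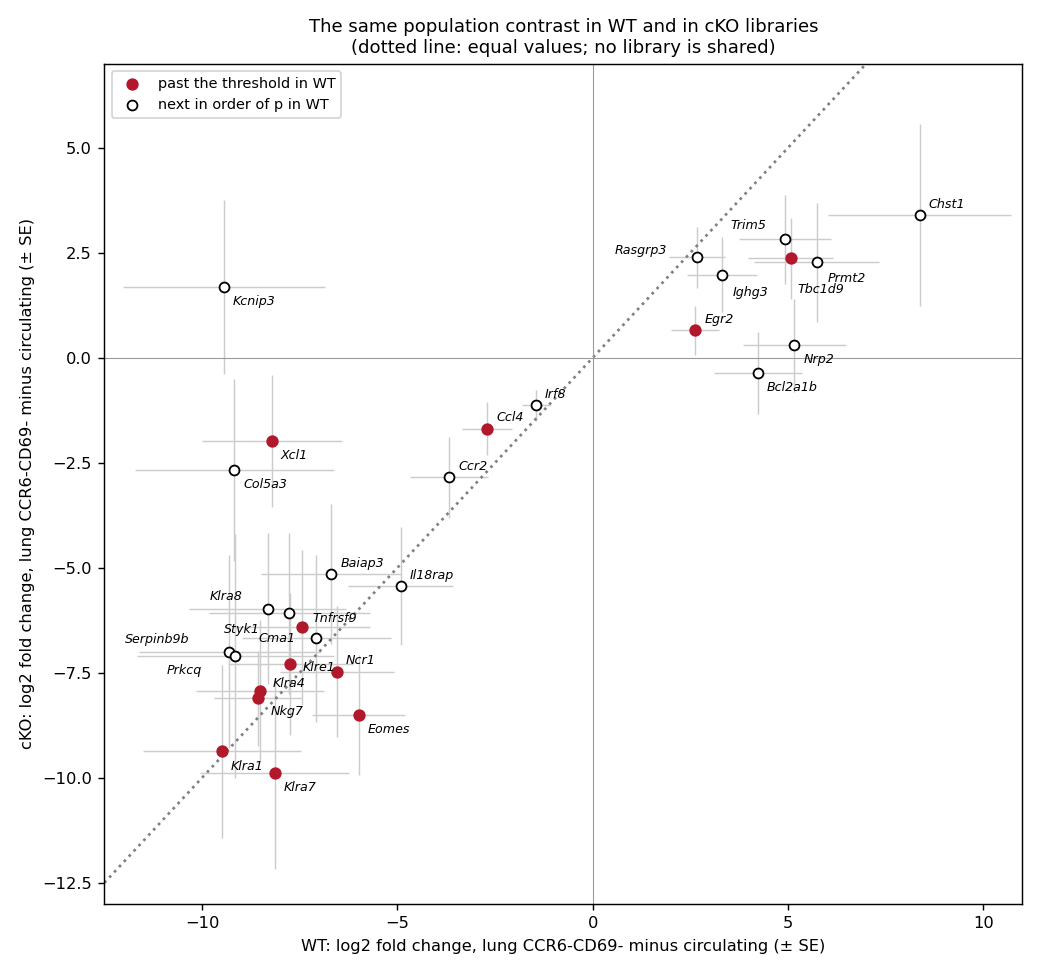
Log2 fold change (lung CCR6-CD69- minus circulating) in WT on the x axis and in cKO on the y axis, with standard errors as grey lines, for the 12 genes past the threshold in WT (red) and the next 18 by p (white). All 12 red points have the same sign in both genotypes; the dotted line marks equal values, and Xcl1 lies far above it at -8.22 and -1.99.

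Other genes were less alike in value between the genotypes. Xcl1 had a log2 fold change of -8.22 in WT and -1.99 ± 1.57 in libraries labelled cKO, Egr2 2.62 and 0.65 ± 0.59, Tbc1d9 5.07 and 2.37 ± 0.97, Nrp2 5.16 and 0.30 ± 1.10, Bcl2a1b 4.23 and -0.36 ± 0.98, and Kcnip3 -9.44 and 1.68 ± 2.07. The test of the difference itself, WT minus cKO, called no gene in edgeR and none in limma voom, with 575 at an unadjusted p under 0.05 in edgeR (8.48%, of which 6.12% higher and 2.36% lower) and 102 called by DESeq2. Unadjusted p for the difference were 0.00453 for Xcl1, 0.0216 for Egr2, 0.0456 for Tbc1d9, 0.00473 for Nrp2, 0.00267 for Bcl2a1b and 0.000665 for Kcnip3. The cKO value of Kcnip3 rests on 48 counts, all in lung CCR6-CD69- replicate 2, against 8 counts in the cKO circulating libraries. The cKO lung CCR6-CD69- group includes the shallowest library of all, replicate 4 with 129025 counts, and replicate 1, which was led by Chil3.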

How the data were processed

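Polyadenylated RNA of sorted cells was extracted with a low-input column kit and made into libraries with a broad-range RNA kit, per the labels' protocols. The deposited values are raw counts per gene symbol, which the authors deposited as 1 table of 18470 genes and 24 libraries. FastQC, STAR and Salmon appear in the submitters' processing notes, as does the build mm39. Which tool made the counts, the annotation and any filter are not given in the sources used here.

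Counts were tested with edgeR 4.0.16 (R 4.3.3; quasi-likelihood F-test, robust, TMM scaling, filterByExpr by group, group and batch as terms) on all 24 libraries, which share 1 estimate of spread. Of 18470 genes, 9060 had no count anywhere and 6779 were tested, with Benjamini-Hochberg adjustment and a threshold of 0.05. CPM use the TMM-scaled library sizes, and errors are SD between libraries or an SE taken as the size of the log2 fold change over the square root of its F value. The biological coefficient of variation was 1.10. Library totals and the 3-count limits they set stand in the report.

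Genes are named by rule: all past the threshold, further ones in order of p up to 30 (mean of 5 CPM or more in either group), up to 3 per list by p, and Scap, Cd69, Ms4a1, Jchain, Nkg7 and Egr2. Some genes that the rule names are not reported here. The groups and the 26 lists were chosen with earlier results of these data known. Of 551 listed genes 344 had a row and 292 were tested.

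Same-numbered WT libraries of the 2 groups deviated together across genes (r 0.117 to 0.173 for the 4 pairs). After batch means were removed, r was 0.0872 in batch 1 and 0.0460 in batch 2. With 2 libraries of each group in each batch, both pairs of a batch must then give the same value. In cKO libraries r was 0.0815 to 0.123, and -0.0306 (batch 1) and 0.0400 (batch 2) after batch means. There lung replicate 1 correlated best with circulating replicate 2, and lung replicate 2 with circulating replicate 1. The number was taken to pair libraries in the block fit alone, from WT data, and the cKO values do not bear this out in batch 1. The reported fit uses no pairing. Alternatives were other scalings, filters and tools (DESeq2 1.42.0, limma 3.58.1 voom), batch and block terms, and libraries or marker genes left out. The fitting script was tested on simulated data. Promoters were read from a RefSeq table (GRCm38.p6, not the build of the counts) and aligned with Biopython 1.88.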

Additional observations from a re-analysis of the deposited data

Results flagged for a closer look

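Of 122 groups of 4 values examined, 32 had 1 library far from the other 3 by Dixon's criterion. Chance gives about 1 in 20 groups for normally distributed values. CPM and shares were used untransformed and need not be normal, so the rate may not hold for them. In 16 of the 32 the other 3 libraries were at 0, where any count at all stands apart, so that rate does not apply to them, and genes of 1 library are not independent. In each of the 32 the library apart was the highest. WT lung CCR6-CD69- replicate 1 stood apart in CPM for Nkg7 at 10.5 (next 0), Klra4 at 2.37 (next 0), Klre1 at 3.39 (next 0), Klra1 at 0.339 (next 0) and Xcl1 at 2.71 (next 0). In that library the same held for Klra7 at 2.03 (next 0), Klra8 at 1.02 (next 0), Serpinb9b at 0.339 (next 0), Styk1 at 0.678 (next 0) and Cma1 at 2.03 (next 0). In that library the same held for Kcnip3 at 0.339 (next 0), Col5a3 at 0.339 (next 0), H2-Eb1 at 10997 (next 4921) and Stard4 at 302 (next 86.2). Low counts of Klra4 and Klre1 were not particular to it. Klra4 had 4 and 6 counts in batch 1 cKO lung CCR6-CD69- libraries. It had 6 and 9 in WT and 4 and 10 in cKO lung CCR6+CD69+ libraries of batch 1. Klre1 was likewise counted in all of these, and both genes were at 0 in every batch 2 lung library. Nkg7 had 16 and 12 counts in batch 2 WT lung CCR6+CD69+ libraries. A link to batch was not tested. WT circulating replicate 1 stood apart in CPM for Tbc1d9 at 19.3 (next 2.44), Xcl1 at 259 (next 61.9), Trim5 at 14.5 (next 0.348), Nrp2 at 12.1 (next 1.39) and Prmt2 at 7.23 (next 0.366). In that library the same held for Chst1 at 0.603 (next 0), Spib at 2728 (next 843), H2-Eb1 at 7408 (next 2448), Mvk at 3.01 (next 0) and Lat at 356 (next 33.4). In that library the same held for Fabp4 at 3.01 (next 0) and Lifr at 1079 (next 223). Mvk and Fabp4 each had 3 and 7 counts in the batch 1 cKO circulating libraries and 0 in those of batch 2. WT lung CCR6-CD69- replicate 3 stood apart in CPM for Prkcq at 6.42 (next 0.728) and Cd247 at 13.9 (next 2.18). WT lung CCR6-CD69- replicate 4 stood apart in CPM for Cd27 at 5.46 (next 0). WT lung CCR6-CD69- replicate 2 stood apart in CPM for Fabp4 at 161 (next 12.8). The share of macrophage and monocyte genes in that library was 5.19%, against at most 0.853% in the others. The immunoglobulin genes took 0.138% of counts in WT circulating replicate 4, against at most 0.0286% in the others.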

How the results depend on the processing

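Between WT lung CCR6-CD69- and circulating libraries, 12 genes were called. The number was 130 with DESeq2, 38 with limma voom, 32 with no low-count filter (12 higher and 20 lower), 22 with only the groups compared and 21 without the libraries under 500000 counts. Fitting no batch term gave 0, each batch by itself 3 (batch 1) and 0 (batch 2), and the fit gave 1 without the libraries led by Chil3. It was 2 without both replicates 2, an alternative chosen after seeing the data. With immunoglobulin and other-cell marker genes left out it was 0 (559 at an unadjusted p under 0.05), which removes 8 of the 12 by construction. The other 4 lost their calls with log2 fold changes of 5.06 (Tbc1d9), 2.62 (Egr2), -7.45 (Tnfrsf9) and -2.70 (Ccl4), against 5.07, 2.62, -7.45 and -2.70 as reported, and adjusted p of 0.112 to 0.123. Their unadjusted p in edgeR ran from 1.68e-05 to 8.00e-05, against 1.79e-05 to 8.85e-05 as reported. These calls were thus lost in the adjustment over all genes tested, which changes when genes with smaller p are removed. Leaving out 1 library gave 1 to 12. With the replicate block it was 13 (4 higher and 9 lower). That fit kept 10 of the 12, all but Klra7 and Tnfrsf9, and changed no other of these calls. In the cKO contrast, 21 as reported became 51 with RLE scaling, 520 with DESeq2, 12 with limma voom, 101 with no low-count filter (67 higher and 34 lower), 9 with no batch term, 1 from batch 1 and 11 from batch 2, 4 with only the groups compared, 7 with marker genes left out, and 10 without the libraries under 500000 counts. Leaving out 1 library gave 13 to 31. For the difference between genotypes, 0 became 102 with DESeq2 and 10 with no low-count filter. The cause of the other shifts was not tested. No called gene reversed in direction, while Scap and Cd69, not called, changed sign in 2 of 23 settings each. Replicate 2 of both WT groups is shallow, so a gene at 0 there may lie anywhere under 3.91 or 6.68 CPM.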
